A study of Mus musculus with 15 samples.

Results

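The dopamine receptors Drd1a, Drd2, Drd3 and Drd4, the dopamine-synthesizing enzymes Th and Ddc, the dopamine transporter Slc6a3 and the monoamine oxidases Maoa and Maob were followed in the Ce (cerebellum) and the St (striatum) of mice from a Hi line, bred for high voluntary running on wheels, and from a Co (control) line. The genes were taken by symbol from the deposited expression table, and they are 9 of its 26628 genes. The mice were males of the Hsd:ICR strain with a labelled age of 6 weeks, from 1 line selected on running and 1 line bred without that selection, and every mouse had free access to a wheel before the whole Ce and the whole St were dissected. RNA sequencing covered 4 CeCo, 4 CeHi, 4 StCo and 3 StHi samples of individual mice that shared no parent, after the authors had removed a further StHi sample. Because each group came from 1 line, selection on running and any other difference between these lines cannot be told apart, and the statements on which line was higher rest on the labels of the deposited columns alone, a direction that the sources used here leave in doubt.

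Dopamine is made from tyrosine in 2 steps. Tyrosine hydroxylase (Th) carries out the rate-limiting step to L-DOPA and aromatic amino acid decarboxylase (Ddc) turns L-DOPA into dopamine, which the transporter Slc6a3 takes back up after release and the monoamine oxidases of the mitochondrial outer membrane (Maoa, Maob) help to degrade. The receptors fall into a D1-like class (Drd1a, Drd5), which raises cyclic AMP through stimulatory G proteins, and a D2-like class (Drd2, Drd3, Drd4), which lowers it through inhibitory G proteins. In the striatum most neurons are projection neurons, of a direct pathway type that carries Drd1a and an indirect pathway type that carries Drd2, whereas the dopamine neurons that innervate them have their cell bodies, and most of their transcripts, in the midbrain.

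The promoters of 4 of these genes are shown, chosen for the place of the genes in the report. Drd1a and Drd2 were the receptors with the widest separation between regions. Th encodes the rate-limiting enzyme, and Maoa was the member that passed a test between the lines. The sequences are from RefSeq on GRCm38.p6, 300 bases from 250 before to 50 after an annotated start, read 5′ to 3′ on the strand of the gene. Capitals mark matches on either strand to a cyclic AMP response element (TGACGTCA), an AP-1 element (TGANTCA), a GC box (GGGCGG) or a TATA box (TATAAA). Windows were held for 8 of the 9 genes, with no entry used for Maob.
Drd1a, chr13:54055609-54055908, minus strand: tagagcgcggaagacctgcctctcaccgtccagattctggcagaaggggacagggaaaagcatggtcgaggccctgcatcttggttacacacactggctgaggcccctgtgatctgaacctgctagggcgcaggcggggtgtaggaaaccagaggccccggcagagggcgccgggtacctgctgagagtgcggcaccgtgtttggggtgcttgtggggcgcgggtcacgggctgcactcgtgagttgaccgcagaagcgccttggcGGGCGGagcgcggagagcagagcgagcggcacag
Drd2, chr9:49340153-49340452, plus strand: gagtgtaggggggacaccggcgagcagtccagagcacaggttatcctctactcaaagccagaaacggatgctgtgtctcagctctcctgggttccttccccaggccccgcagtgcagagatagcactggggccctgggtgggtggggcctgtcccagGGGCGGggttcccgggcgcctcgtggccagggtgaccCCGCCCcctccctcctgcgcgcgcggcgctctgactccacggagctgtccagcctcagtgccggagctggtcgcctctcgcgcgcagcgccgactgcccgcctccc
Th, chr7:142899946-142900245, minus strand: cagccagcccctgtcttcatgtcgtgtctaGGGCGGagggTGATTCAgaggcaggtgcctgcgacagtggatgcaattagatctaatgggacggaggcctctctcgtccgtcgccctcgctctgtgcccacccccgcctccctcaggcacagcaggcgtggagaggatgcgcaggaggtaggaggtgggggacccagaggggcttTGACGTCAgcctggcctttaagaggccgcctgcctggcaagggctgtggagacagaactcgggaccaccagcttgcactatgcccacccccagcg
Maoa, chrX:16619448-16619747, plus strand: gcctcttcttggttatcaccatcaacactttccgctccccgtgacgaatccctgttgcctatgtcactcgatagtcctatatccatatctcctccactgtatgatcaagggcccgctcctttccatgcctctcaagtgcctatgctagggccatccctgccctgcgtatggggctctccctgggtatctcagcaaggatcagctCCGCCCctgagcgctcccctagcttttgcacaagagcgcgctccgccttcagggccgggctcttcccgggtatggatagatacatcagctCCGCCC

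The Th window held a cyclic AMP response element beginning 45 bases before the start, a motif found in 1.79% of all 32851 promoter windows of this length, and an AP-1 element at 210 bases before the start, a motif found in 7.81% of them. The Drd1a window held 1 GC box and the Drd2 and Maoa windows 2 each, and 35.7% of all windows held at least 1. No TATA box letters occurred in these 4 windows, against 13.6% of all windows, and of the other members Ddc had them, 68 bases before one of its starts. The windows were rich in G and C, with 65.7% in Drd1a, 70.3% in Drd2, 64.3% in Th and 57.7% in Maoa against a median of 52.7% over all windows. Drd3 and the first Ddc start lay lower, at 42.0% and 41.3%. These matches describe the letters of the windows, and the samples carry no measurement of binding there.

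On GRCm38, Drd1a (chromosome 13, 54051183 to 54055658) and Slc6a3 (chromosome 13, 73536128 to 73578672) share a chromosome, as do Drd4 (chromosome 7, 141291974 to 141296464) and Th (chromosome 7, 142892779 to 142899995). Drd2 lies on chromosome 9 (49340360 to 49408177), Drd3 on chromosome 16 (43754015 to 43825982) and Ddc on chromosome 11 (11814101 to 11898144). Maoa (X, 16619698 to 16687812, plus strand) and Maob (X, 16709281 to 16817366, minus strand) are neighbours whose 3′ ends face each other across 21.5 kb. An antisense gene, 1700042O10Rik, overlaps the span of Ddc, but 0% of the 50-base windows of the Ddc exons occur in another gene on either strand. For Maoa, 3.98% of these windows also occur in another gene. Whether the counting used strand is not given in the sources used here, and the part of 1700042O10Rik in the Ddc counts was not tested.

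The values are fragments per gene that the authors divided by 1 factor per sample, here called normalized counts. A sample held 32909380 to 47485536 fragments, 1 fragment was worth 0.841 to 1.30 normalized counts, and at most 3 fragments in every sample of a group were treated as the floor. The labelled tissues carried their own markers. The 12 markers of striatal projection neurons other than the members summed to between 222348 and 305030 normalized counts in St samples and between 15426 and 17643 in Ce samples, and 10 markers of cerebellar neurons to between 355698 and 415386 in Ce and between 12764 and 17080 in St. Replicate 3 of CeHi stood apart from the other Ce samples on the first principal component, at -66.7 against -89.6 to -83.2, and results whose value it decides are given with and without it. Choroid plexus markers varied widely among Ce samples of both lines, from 1312 to 115666 in CeCo and from 955 to 112434 in CeHi, and their part in the results below was not tested.

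Per kb of exon, the scale on which genes can be ranked, Drd1a led in the striatum and Maoa in the cerebellum. The means in StCo (n = 4) were 2921 ± 511 (SD) normalized counts per kb for Drd1a, 1676 ± 331 for Drd2, 394 ± 17.5 for Maob, 379 ± 17.9 for Maoa, 191 ± 29.3 for Th, 132 ± 27.4 for Ddc, 44.6 ± 10.1 for Drd3, 3.39 ± 0.987 for Slc6a3 and 0.534 ± 0.4661 for Drd4. Neighbours in this order had overlapping samples for Maob and Maoa and for Th and Ddc, and the other neighbours did not overlap. StHi followed the same order of means, with Maob clear of Maoa there. In CeCo the order was Maoa at 650 ± 31.2, Maob at 396 ± 28.2, Ddc at 63.9 ± 24.7, Th at 57.4 ± 10.7, Drd2 at 10.3 ± 2.52, Drd1a at 5.79 ± 1.48 and Drd4 at 5.39 ± 1.34 per kb, followed by Drd3 and Slc6a3 at about 1 per kb or less. Ddc and Th overlapped there, as did Drd2 and Drd1a, and Drd1a and Drd4. The receptors held both the highest and the lowest ranks in St.

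**Figure D1:**
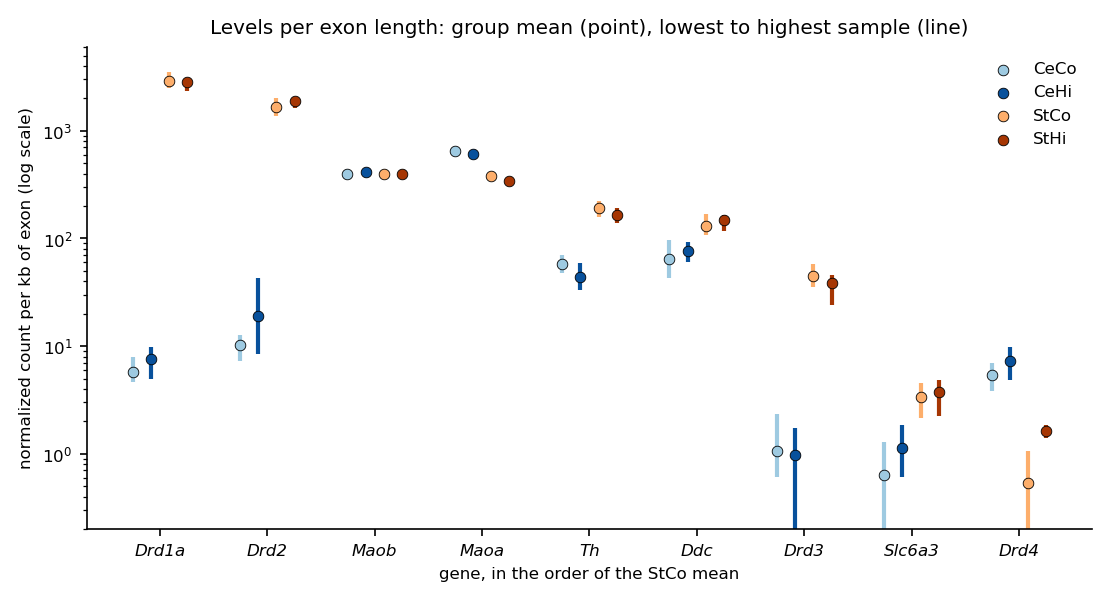
Normalized counts per kb of exon (log scale) for the 9 genes, in the order of their StCo means, in the 4 groups of Ce and St by line. Points are group means and vertical lines run from the lowest to the highest sample, cut at the axis where a sample was at 0. Drd1a and Drd2 sit above 1000 per kb in St and at or under 42.7, the Drd2 value of CeHi replicate 3, in Ce, while Maob stays near 400 in all groups.

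Drd1a and Drd2 were the most abundant members of the striatum and ranked below the 4 enzymes in the cerebellum. Drd1a, the D1 receptor of direct pathway neurons, had 11201, 8820, 8773 and 12398 normalized counts in the StCo samples and 8342, 10858 and 10682 in StHi. In Ce it had 27.96, 19.6, 16.2 and 17.8 in CeCo and 34.5, 20.04, 17.6 and 34.9 in CeHi. Every St sample was above every Ce sample, and the lines overlapped in both regions. On the log2(value + 1) scale of the limma model, Drd1a was higher in St than in Ce by 8.93 (SE 0.219, adjusted p = 1.65e-14) in the Co line and by 8.55 (SE 0.237, adjusted p = 1.03e-13) in the Hi line.

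Drd2, the D2 receptor of indirect pathway neurons and also the autoreceptor of dopamine neurons, had 5103, 3551, 3531 and 4888 normalized counts in StCo and 4125, 5275 and 5113 in StHi. It had 32.6, 18.7, 23.0 and 30.3 in CeCo and 33.6, 28.5, 21.3 and 109 in CeHi. The value of 109 came from CeHi replicate 3, and the other Ce samples of both lines lay between 18.7 and 33.6. St exceeded Ce by 7.31 on the log2 scale (SE 0.387, adjusted p = 8.41e-10) in the Co line and by 6.92 (SE 0.418, adjusted p = 4.48e-09) in the Hi line, where it was 7.41 without CeHi replicate 3. For scale, 74.7% of the 15213 genes tested passed an adjusted p of 0.05 between regions in the Co line and 70.5% in the Hi line, so a region call by itself sets no gene apart. Drd1a, Drd2 and Drd3 moreover passed the filter on low values (a CPM of at least 1 in 3 or more samples) through their St samples, with 0, 1 and 0 Ce samples at that level, so that a difference between regions was built into their being tested.

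In CeHi replicate 3 the high value of Drd2 stood beside high values of some projection-neuron markers, while Drd1a lay next to its value in CeHi replicate 0. The median of the 12 markers there was 1.75% of their mean striatal level, where the remaining 7 samples of Ce had 0.536% to 0.651%, and Drd2 was at 2.41%, where they had 0.415% to 0.745%. Bcl11b, a transcription factor of projection neurons, had 208 normalized counts in that sample and 61.4 to 84.9 in the remaining 7, and Tac1, which encodes substance P, had 189 there and 17.8 to 56.3 in the remaining 7. Of the 12 markers, 8 were above and 2 below all other Ce samples in it. Their sum, which the abundant markers Penk, Ppp1r1b and Pde10a make up for the most part, was not high, at 15862 beside 15426 to 17643 in the remaining 7. Drd1a was at 0.343% there, next to 0.340% in CeHi replicate 0. The Ce line difference of Drd2 fell from 0.58 to 0.09 on the log2 scale without this sample (adjusted p = 0.457 with it and 0.880 without it). The part of other tissue in this sample was not tested.

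**Figure D2:**
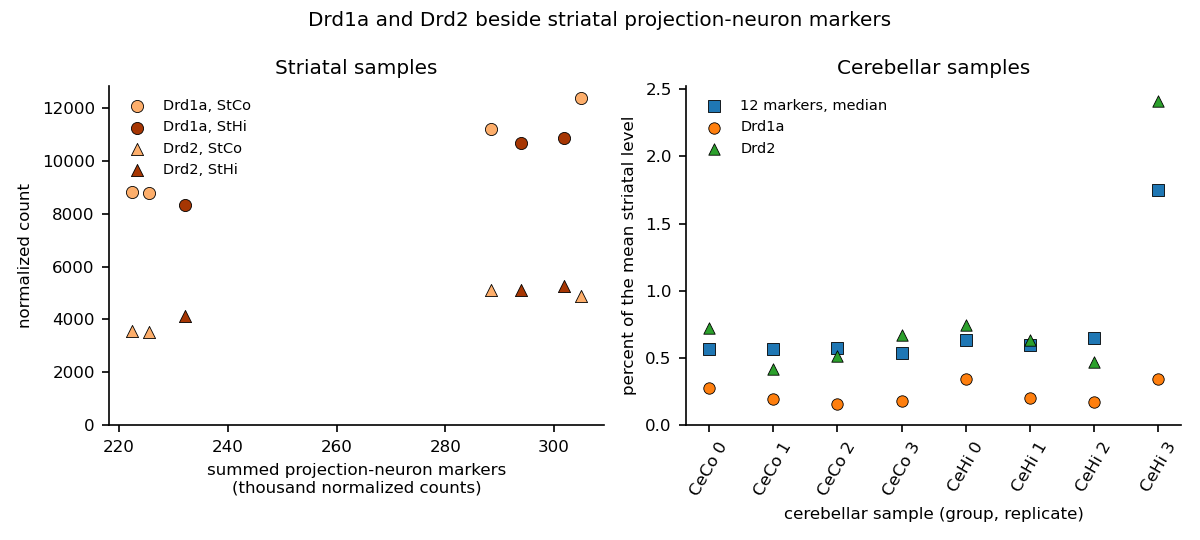
Left, normalized counts of Drd1a (circles) and Drd2 (triangles) against the summed normalized counts (in units of 1000) of 12 projection-neuron markers in the 7 St samples, coloured by line. Right, Drd1a, Drd2 and the median of the 12 markers in each Ce sample, as percent of the mean striatal level. The St samples fall into 2 clusters of marker level that both hold samples of each line, and CeHi replicate 3 is apart for Drd2 and the markers but not for Drd1a.

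Among St samples, Drd1a was high where the projection-neuron markers as a whole were high. The 3 samples with marker sums of 222348 to 232051 (StCo replicates 1 and 2 and StHi replicate 0) had Drd1a at 8342 to 8820, and the 4 samples with sums of 288477 to 305030 had it at 10682 to 12398. Per 1000 normalized counts of the markers, Drd1a was 39.5 ± 0.842 (SD, n = 4) in StCo, from 38.8 to 40.6, and 36.1 ± 0.229 (n = 3) in StHi, from 36.0 to 36.4. In StCo the coefficient of variation was 17.5% for the normalized counts of Drd1a and 2.13% for this ratio. Of all 15213 genes tested, 2.68% had a ratio to these markers that was lower in every StHi than in every StCo sample, as Drd1a had. Drd2 per 1000 marker counts overlapped between the lines, at 15.7 to 17.7 in StCo and 17.4 to 17.8 in StHi. In bulk tissue, fewer cells of a type and less RNA per cell cannot be told apart.

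Within a striatal sample, the ratio of Drd2 to Drd1a was 0.456, 0.403, 0.403 and 0.394 in StCo and 0.494, 0.486 and 0.479 in StHi, so that every StHi sample was above every StCo sample, with a geometric mean 1.18 times as high. Of the other genes tested, 2.83% had a ratio to Drd1a that was higher in every StHi sample. The indirect pathway genes Adora2a, an adenosine receptor, and Penk, which encodes enkephalin, were among them. Adora2a per Drd1a was 1.03 to 1.08 in StCo and 1.31 to 1.38 in StHi, and Penk per Drd1a was 4.087 to 4.6 in StCo and 5.13 to 5.22 in StHi. Penk was also higher in every CeHi sample (4523 to 4762) than in every CeCo sample (3132 to 3808), as were 6.88% of the genes tested. Its Ce line difference was 0.40 (adjusted p = 0.0627), and Adora2a overlapped in Ce. Over both regions Penk was the 1 of the 12 markers called, where 4.34% of genes were called higher in Hi. Sums of markers of neighbouring tissue also varied among the St samples. Those of cortical excitatory neurons summed to 32951 to 49009 normalized counts in StCo and 17310 to 37323 in StHi, those of the olfactory bulb or tubercle to 7170 to 9269 in StCo and 4725 to 7796 in StHi, and those of the choroid plexus to 1259 to 1770 in StCo and 1771 to 17976 in StHi. The cortical and olfactory sums overlapped between the lines and share the gene Tbr1, with means of 4100 in StCo and 2928 in StHi. Eomes, of the olfactory list, had a higher mean in StHi (81.5) than in StCo (27.5), and the other genes of that list a lower one. The highest choroid plexus sum was that of StHi replicate 2 and was mostly Ttr, at 14994.5. The part of these tissues in the ratios was not tested. The third indirect pathway marker, the orphan receptor Gpr6, overlapped at 0.0985 to 0.123 in StCo and 0.115 to 0.139 in StHi.

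The direct pathway markers did not separate from Drd1a in the same way. Tac1 per Drd1a was 0.841 to 1.09 in StCo and 0.791 to 0.867 in StHi, and Pdyn, which encodes dynorphin, was 0.0969 to 0.125 in StCo and 0.0970 to 0.118 in StHi. In all, 2 of the 12 markers were higher per Drd1a in every StHi sample and 10 overlapped. Relative to Drd2, 5 of the 12 were lower in every StHi sample (among them Tac1, Foxp1, Bcl11b and Isl1), 1 was higher (Adora2a) and 6 overlapped. Of all genes tested, 4.94% did not overlap in either direction relative to Drd2 and 0.769% were higher in every StHi sample. With 4 against 3 samples an exact two-sided permutation test cannot go below 0.0571, and these ratios were looked at in several forms, so they are given as values with no p. The line differences of the 2 receptors themselves did not pass the test in St: -0.05 for Drd1a (95% interval -0.55 to 0.46, adjusted p = 0.969) and 0.19 for Drd2 (95% interval -0.72 to 1.09, adjusted p = 0.916).

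**Figure D3:**
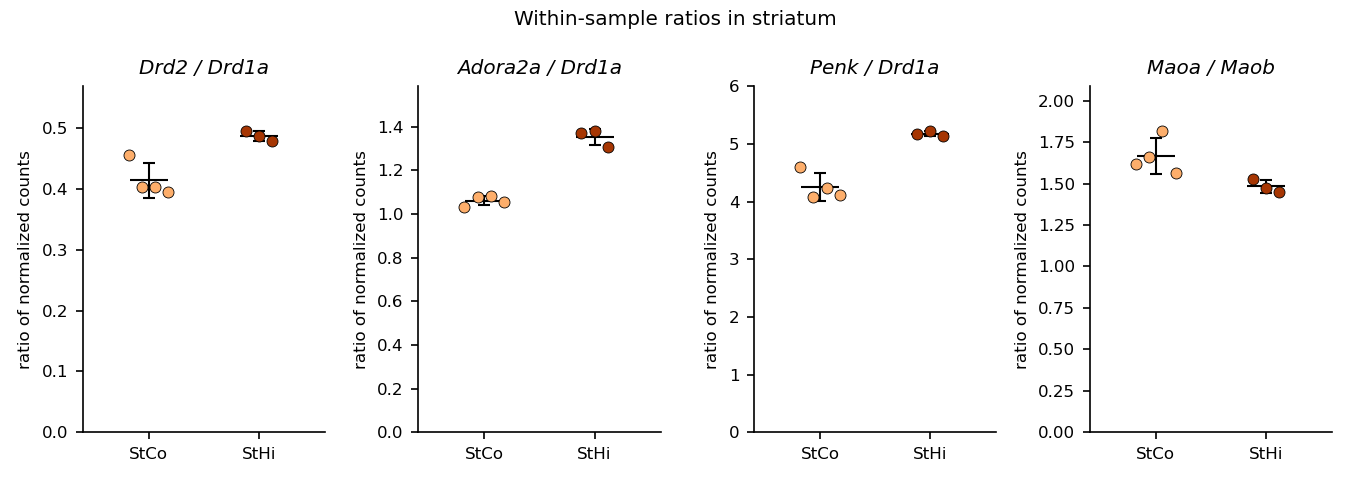
Ratios of normalized counts within each St sample for Drd2, Adora2a and Penk to Drd1a and for Maoa to Maob, in StCo (n = 4) and StHi (n = 3). Points are samples, horizontal bars means and error bars 1 SD, and each axis starts at 0. In all 4 panels the lines do not overlap, with StHi higher for the 3 ratios to Drd1a and lower for Maoa to Maob.

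Drd3, a D2-like receptor of the ventral striatum, was a striatal gene at a far lower level. It had 51.8, 66.3, 85.1 and 56.7 normalized counts in StCo and 35.0, 67.0 and 65.3 in StHi. In CeCo it had 0.932, 0.892, 3.41 and 0.891, and in CeHi 2.52, 1.05, 0 and 2.11. These Ce values are 0 to 4 fragments per sample, and the 7 fragments of CeCo against 252 of StCo gave a ratio of St to Ce of 41.8 (exact 95% interval 19.99 to 105, counting error only). In the model St was higher by 4.79 (SE 0.419, adjusted p = 1.53e-08) in Co and by 4.65 (SE 0.453, adjusted p = 7.65e-08) in Hi. Drd3 passed the filter through its St samples, with 0 samples of CeCo or CeHi at a CPM of 1, so this difference was built into its being tested. With only the CeHi and StHi samples it fell under the filter, as 2 StHi samples reached that level. StHi replicate 0 was the lowest St sample, the lines overlapped, and the St line difference was -0.25 (95% interval -1.21 to 0.70, adjusted p = 0.888).

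Drd4, the remaining D2-like receptor, ran the other way, with more in the cerebellum. It had 14.0, 10.7, 19.6 and 16.03 normalized counts in CeCo and 13.5, 20.04, 20.4 and 27.5 in CeHi, where the lines overlapped. In St it had 0, 2.97, 2.1 and 0.914 in StCo, which is the floor, and 5.19, 3.88 and 4.75 in StHi. Every StHi sample held 4 fragments and every StCo sample 0 to 3, so the lines did not overlap. Of the genes past the filter on low values, which Drd4 did not pass, 7.2% did not overlap with Hi higher. The share among genes as low as Drd4 was not computed. Over the groups, Drd4 had 12 fragments in StHi against 6 in StCo, a ratio of 2.93 with an exact 95% counting interval of 1.02 to 9.50.

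Drd4 lay under the filter on low values, and its model values come from the fit without the filter. The line difference there was 0.40 (SE 0.371, adjusted p = 0.678) in Ce, or 0.25 without CeHi replicate 3, 1.34 (SE 0.401, adjusted p = 0.107) in St and 0.87 (SE 0.273, adjusted p = 0.0723) over both regions, none of which passed. The last passed in 1 of the 15 fits that left out a sample (without StCo replicate 1, adjusted p = 0.0340). Ce exceeded St in both lines, with a difference St minus Ce of -2.85 (SE 0.371, adjusted p = 3.35e-06) in Co and -1.91 (SE 0.401, adjusted p = 0.000565) in Hi. Over fragments, CeCo was 9.76 times StCo (interval 4.26 to 27.5) and CeHi 4.39 times StHi (2.39 to 8.84). Markers of cortical excitatory neurons, another population in which this receptor is known, summed to 17310 to 37323 in StHi and to 32951 to 49009 in StCo, and their part in the Drd4 values was not tested.

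The fifth receptor, Drd5, is not a member but completes the D1-like class. It had 162, 159, 208 and 182 normalized counts in StCo, 149, 178 and 169 in StHi, 27.96, 33.0, 30.7 and 25.8 in CeCo and 48.8, 33.8, 46.3 and 59.2 in CeHi. The CeHi samples were all above the CeCo samples, as in 6.88% of the genes tested, and the Ce line difference of 0.63 (SE 0.164, adjusted p = 0.0300) passed the test. It did not pass without CeHi replicate 3 (0.52, adjusted p = 0.0928), nor in 4 other fits that left out a sample or in the fit of the Ce samples alone (adjusted p = 0.0999). In St the difference was -0.11 (adjusted p = 0.877), and the interaction of -0.74 did not pass (adjusted p = 0.255). An antisense gene, Gm26560, overlaps Drd5. Of the 50-base windows of the Drd5 exons, 47.8% also occur on either strand in other genes, which may include Gm26560, so the counts of Drd5 are uncertain.

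**Figure D4:**
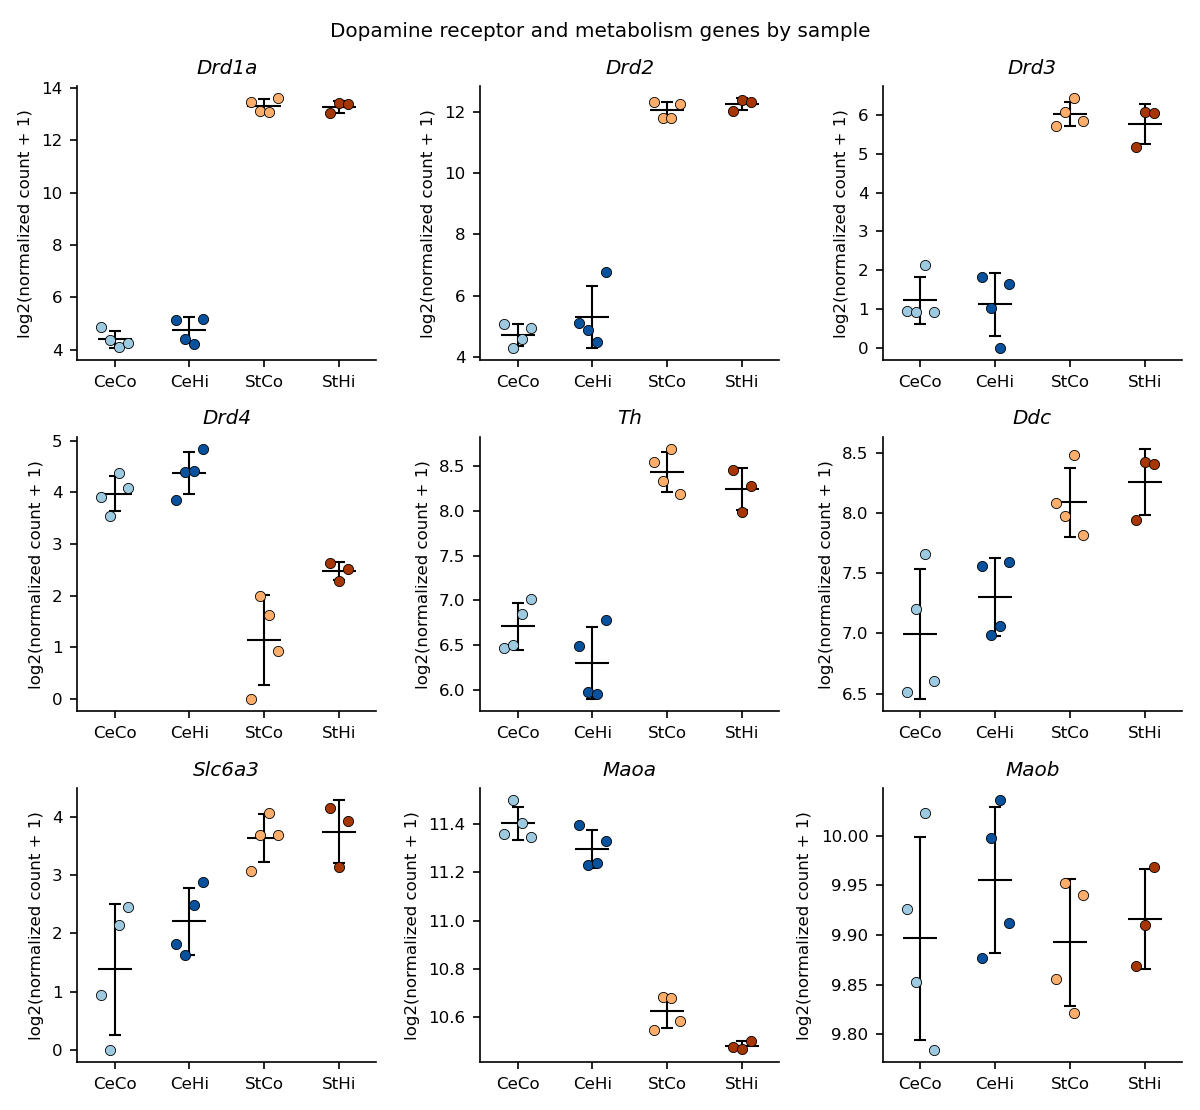
log2(normalized count + 1) of each of the 9 genes in every sample of CeCo (n = 4), CeHi (n = 4), StCo (n = 4) and StHi (n = 3). Points are samples, horizontal bars means and error bars 1 SD, and each panel has its own axis, which does not start at 0 in most. The regions do not overlap for any gene but Maob, CeHi replicate 3 stands out for Drd2, and Maob is level across the 4 groups. The share of all genes whose regions do not overlap was not computed. Between regions, 74.7% of the genes tested passed an adjusted p of 0.05 (limma) in the Co line and 70.5% in the Hi line.

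The enzymes of dopamine synthesis were transcribed in both regions and more in the striatum. Th had 373, 321, 411 and 290 normalized counts in StCo and 350, 253 and 310 in StHi, against 87.6, 90.045, 114 and 128 in CeCo and 89.1, 62.2, 61.1 and 109 in CeHi. All St samples were above all Ce samples, and the lines overlapped in both regions. The St minus Ce difference was 1.73 (SE 0.188, adjusted p = 2.52e-07) in Co and 1.94 (SE 0.203, adjusted p = 1.91e-07) in Hi. Between lines Th was lower on average in Hi, by -0.41 in Ce (95% interval -0.81 to -0.01, adjusted p = 0.235) and -0.20 in St (95% interval -0.63 to 0.23, adjusted p = 0.758), without passing the test in either.

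Other catecholamine cells also use Th, and their markers were read beside it. The noradrenergic markers, among them Dbh and Slc6a2, summed to 7.13 to 56.9 normalized counts in CeCo and 17.6 to 77.1 in CeHi. The top sum of CeCo was in replicate 0, which had the lowest Th of CeCo at 87.6. The top sum of CeHi was in replicate 3, which had the highest Th of CeHi at 109. In St the sums were 12.3 to 17.9 in StCo and 5.19 to 11.7 in StHi, with Slc6a2 at the floor. Of 10 markers of midbrain dopamine neurons, the transcription factors Pitx3, Foxa1, Foxa2 and Lmx1b were at the floor in StCo, StHi and CeHi, and the first 3 of them in CeCo. Others were not: in StCo, Nr4a2 had 1641 to 2564 normalized counts, Slc10a4 647 to 946, Aldh1a1 515 to 612 and Slc18a2 338 to 445. The 10 markers summed to 5336 to 5931 in CeCo, 8379 to 9320 in CeHi, 3559 to 4244 in StCo and 3234 to 4073 in StHi. Most of each Ce sum was Aldh1a1, with means of 4430 in CeCo and 7311.5 in CeHi. The part of the noradrenergic and dopamine neuron markers in the Th values was not tested.

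Ddc had 270, 250, 356 and 224 normalized counts in StCo and 245, 342 and 337 in StHi, and 90.4, 146, 201 and 96.2 in CeCo and 188, 126, 132 and 192 in CeHi. Its regions came closer than those of Th but did not overlap, the highest Ce sample being 201 and the lowest St sample 224. The St minus Ce difference was 1.10 (SE 0.236, adjusted p = 0.000550) in Co and 0.96 (SE 0.255, adjusted p = 0.00321) in Hi. The coefficient of variation of Ddc was 38.7% in CeCo and 17.7% to 22.2% in the other 3 groups. The lines overlapped, and the line differences of 0.30 in Ce (adjusted p = 0.534) and 0.16 in St (adjusted p = 0.866) did not pass. Serotonergic neurons also use Ddc, and 4 of their markers summed to 306 to 402 in StCo and 313 to 410 in StHi, above the 18.7 to 38.4 of CeCo and 14.8 to 42.3 of CeHi. Most of the St sum was the monoamine transporter Slc22a3, with means of 308 in StCo and 347 in StHi, while the defining factor Fev was at the floor in all 4 groups. Their part in the Ddc values was not tested.

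Slc6a3, the transporter that defines dopamine terminals as a protein but is transcribed in the midbrain cell bodies, was close to the floor. It had 7.41, 11.9, 15.8 and 11.9 normalized counts in StCo and 16.9, 7.77 and 14.2 in StHi, and 0.932, 0, 3.41 and 4.45 in CeCo and 2.52, 2.11, 4.63 and 6.34 in CeHi. St samples were above Ce samples throughout, and the lines overlapped in both regions. The fragments of StCo and CeCo, 46 against 10, gave a ratio of 5.34 (exact 95% counting interval 2.66 to 11.9), and those of StHi and CeHi, 33 against 16, a ratio of 3.25 (1.74 to 6.32). In the fit without the filter St was higher by 2.23 (adjusted p = 0.000524) in Co and by 1.52 (adjusted p = 0.0173) in Hi, and the latter was lost without StHi replicate 0 (1.31, adjusted p = 0.0709) or replicate 2 (1.42, adjusted p = 0.0554) and with a pseudocount of 0.1 (adjusted p = 0.137). Line differences were 0.83 in Ce (95% interval -0.17 to 1.82, adjusted p = 0.415) and 0.11 in St (95% interval -0.96 to 1.19, adjusted p = 0.985).

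The monoamine oxidases were the steadiest members, and Maoa was the member with a line difference past the test. Maoa, which prefers serotonin and noradrenaline and also oxidizes dopamine, had 2628, 2891, 2713 and 2605 normalized counts in CeCo and 2695, 2403, 2414 and 2571 in CeHi, and 1497, 1644, 1641 and 1536 in StCo and 1426, 1416 and 1451 in StHi. It was higher in Ce than in St in every sample, with St minus Ce of -0.77 (SE 0.0512, adjusted p = 3.69e-10) in Co and -0.81 (SE 0.0553, adjusted p = 7.34e-10) in Hi. The StHi samples were all below the StCo samples, as in 5.87% of the genes tested, and the lines overlapped in Ce.

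Taking both regions together, Maoa was lower in the Hi line by a log2 difference of -0.13 (SE 0.0377, 95% interval -0.21 to -0.05, adjusted p = 0.0431), which is 0.915 times the Co level. It was 1 of 7 members called in this comparison, where 8.48% of the 15213 genes were called, 4.34% higher and 4.14% lower in Hi. The regional differences were -0.11 in Ce (SE 0.0512, adjusted p = 0.244) and -0.15 in St (SE 0.0553, adjusted p = 0.206), and the interaction was -0.04 (95% interval -0.20 to 0.12, adjusted p = 0.944). The call was kept in 2 of the 15 fits that left out a sample, with adjusted p between 0.0338 and 0.123, and it was lost without CeHi replicate 3 (-0.13, adjusted p = 0.0602), without the TMM scaling (adjusted p = 0.0607), without the filter (adjusted p = 0.0859) and with the replicate number as a block (adjusted p = 0.0600). Astrocyte markers overlapped between the lines in St, at 41475 to 42973 in StCo and 39533 to 44708 in StHi, as did endothelial markers, at 6036 to 7468 in StCo and 6478 to 7858 in StHi. In Ce, astrocyte markers summed to 88032 to 98507 in CeCo and 95473 to 106384 in CeHi, and endothelial markers to 6406 to 6869 in CeCo and 6855 to 7343 in CeHi. With the cortical and choroid plexus sums given above for St, the part of these cells in the Maoa values was not tested.

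Maob, the form that prevails in glia and serotonergic neurons, passed no test between the groups. It had 972, 924, 1039 and 881 normalized counts in CeCo, 939, 1021, 1049 and 963 in CeHi, 926, 990, 904 and 982 in StCo and 934, 961 and 1001 in StHi. The 4 groups overlapped with one another. St minus Ce was 0.00 (95% interval -0.13 to 0.13, adjusted p = 0.987) in Co and -0.03 (-0.18 to 0.11, adjusted p = 0.657) in Hi, and the line difference was 0.05 (-0.08 to 0.19) in Ce and 0.02 (-0.13 to 0.16) in St. The ratio of Maoa to Maob was 2.61 to 3.13 in CeCo and 2.30 to 2.87 in CeHi, and 1.56 to 1.82 in StCo and 1.45 to 1.53 in StHi. The lines did not overlap in this ratio in St, where 6.71% of genes had a ratio to Maob that was lower in every StHi sample.

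**Figure D5:**
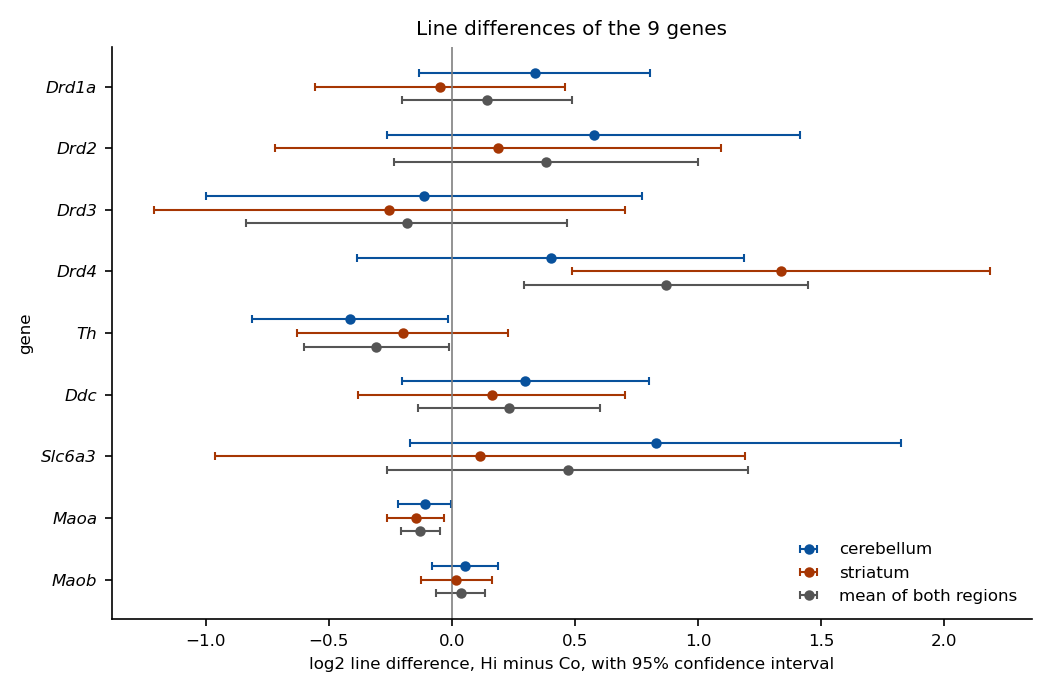
Line differences (Hi minus Co) of the 9 genes on the log2 scale, with 95% confidence intervals, in Ce, in St and as the mean of both regions, from the limma model of all 15 samples. Drd4 and Slc6a3, under the filter, come from the fit without it. Before adjustment the intervals leave out 0 for Maoa throughout, for Drd4 in St and in the mean, and for Th in Ce and in the mean, and after adjustment over all genes the mean for Maoa passes (adjusted p = 0.0431).

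Counted over the 7 members that passed the filter, 0 were called between lines in Ce, where 5.94% of all genes tested were called, 0 in St, where 2.66% were called, and 0 for the line-by-region interaction, where 0.532% were called. The same counts were 0 in the 3 comparisons with edgeR's quasi-likelihood test on the recovered fragments. At an unadjusted p of 0.05, Th and Maoa were below it in Ce and Maoa in St, where 19.7% and 14.1% of all genes were, and 0 members were below it for the interaction, where 9.56% were. The intervals of Drd3, from -1.21 to 0.70 in St, and Drd2, from -0.72 to 1.09, were the widest of the 7 in St.

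The other genes of the dopamine pathway were 48 genes in 5 lists, of which 41 passed the filter. In Ce 4 of them were higher in Hi and 0 were lower: Drd5, Aldh1a1 (0.72, SE 0.0696, adjusted p = 4.24e-06), Prkar2b and Caly. Of all genes tested, 2.94% were higher and 2.99% lower in Ce, and 1.49% higher and 1.17% lower in St. Aldh1a1, the aldehyde dehydrogenase that oxidizes the aldehyde formed from dopamine by monoamine oxidase, had 4196 to 4724 normalized counts in CeCo and 6811 to 7880 in CeHi, and 515 to 612 in StCo and 806 to 961 in StHi. It was the gene of these lists called in St as well (0.65, adjusted p = 4.85e-05), and the only one called over both regions (0.68, adjusted p = 1.11e-07). It stayed past the test in the 15 fits that left out a sample in each of these comparisons.

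Prkar2b, a regulatory subunit of protein kinase A, had 601 to 686 normalized counts in CeCo and 733 to 950 in CeHi, a difference of 0.35 (adjusted p = 0.00992). Caly, which encodes calcyon, had 1219 to 1586 in CeCo and 1572 to 2064 in CeHi, a difference of 0.36 (adjusted p = 0.0231). This call was lost without CeHi replicate 3 (0.29, adjusted p = 0.0664) and without CeHi replicate 2 or CeCo replicate 1 or 2 (adjusted p between 0.0611 and 0.0707). It was also lost with the Ce samples alone (adjusted p = 0.0565). In St these genes gave -0.09 for Prkar2b (adjusted p = 0.709) and -0.02 for Caly (adjusted p = 0.974). The median line difference of the 41 genes was 0.09 in Ce and 0.02 in St, beside -0.00214 in Ce and -0.00464 in St over all genes tested.

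By role, the list for cofactor synthesis and storage had 0 of 7 tested genes called in either region between lines. Slc18a2, the vesicular transporter that loads dopamine, had 214 to 251 normalized counts in CeCo, 233 to 273 in CeHi, 338 to 445 in StCo and 405 to 446 in StHi, with a line difference of 0.16 (adjusted p = 0.369) in Ce and 0.19 (adjusted p = 0.449) in St. The list for breakdown and other uptake had 1 of 7 called, which was Aldh1a1. The list for receptor coupling and signalling had 2 of 22 called in Ce and 0 of 22 in St. The transcription factors of dopamine neurons had 0 of 4 called.

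Between regions, most genes of the coupling list were higher in St, as were the receptors other than Drd4. Of the 22 genes of the list, 16 were higher in St and 4 lower in each line, with a median difference of 1.03 in Co and 0.96 in Hi. Of all genes tested, 36.9% were higher and 37.8% lower in St in the Co line, and 35.1% higher and 35.4% lower in the Hi line. Adcy5, the adenylyl cyclase of projection neurons, was higher by 4.31 in Co and 4.29 in Hi, Gng7 by 5.61 and 5.75, Rgs9 by 6.76 and 6.08, and Gnal, the stimulatory G protein of the striatum, by 2.08 and 1.98. Ppp1r1b, which encodes the phosphatase inhibitor DARPP-32, was higher by 3.48 and 3.37. The inhibitory subunits Gnai1 and Gnai3, Arrb2 and the receptor kinase Adrbk1 were the 4 that were lower, by differences between -0.57 and -0.22. Several of these genes were listed because they are striatal, so their direction is no independent evidence.

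Nearness of profiles was the root mean square difference of log2 values centred on the mean of each gene. For each member past the filter, genes nearest to it over the 15 samples are given as a description. For Drd1a these included Crym (0.378) and Ddn (0.411), and for Drd2 Bcl11b (0.281), Crabp1 (0.315) and Tacr1 (0.315). For Drd3 they were Htr4 (0.389), Gabrg3 (0.393) and Lzts1 (0.406). Th had Rcor2 (0.234), Resp18 (0.239) and Hap1 (0.240), and Ddc had Nkd2 (0.22), Gdpd2 (0.245) and 4833438C02Rik (0.246). The distances of the monoamine oxidases were smaller, 0.0612 for Pcif1, the nearest to Maoa, and 0.0551 for Pigg, the nearest to Maob. The 15 samples share the 2 regions, and a gene with a like difference between Ce and St lies near for that reason alone.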

How the data were processed

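RNA-seq values of 15 samples (4 CeCo, 4 CeHi, 4 StCo, 3 StHi) were taken from 1 deposited table. Per the study's methods and the submitters' processing notes, the authors aligned paired reads with TopHat2 to GRCm38, the assembly also named mm10, and made the table with Cuffnorm 2.2.1. The deposited signal values carry a name for FPKM but hold fragment counts per gene that the authors divided by 1 factor per sample, with no scaling by gene length: 99.4% to 99.7% of values up to 50 fragments were whole multiples of 1 fragment, within 0.05 of a fragment. Each sample held 32909380 to 47485536 fragments, and intervals on fragments cover counting error only.

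Values were scaled by TMM factors (0.993 to 1.01) and tested as log2(value + 1) with limma 3.58.1 (R 4.3.3), in 1 fit of 4 group means with a robust, trended variance, on the 15213 of 26628 genes with a CPM of at least 1 in at least 3 samples, with Benjamini-Hochberg adjustment and a threshold of 0.05. Drd4 and Slc6a3, under this filter, take their values from the fit without it. Fold changes on this scale understate those of low genes. Differences are Hi minus Co or St minus Ce, and the mean over both regions weights the regions equally. The test scripts were tested on simulated data. Standard errors, intervals and adjusted p-values in the report are from this limma fit unless edgeR is named, and p-values measure the spread between samples of 1 line per group. The fit treated the 15 samples as independent, with no term for the mouse. If Ce and St samples came from the same mice, the tests over both regions, between regions and of the interaction did not take this into account. Levels per kb were divided by the exon length of the GRCm38 annotation.

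All 9 genes were named, with the pathway genes that passed a line test or were needed to account for their list. Up to 3 of the nearest profiles were given for each of the 7 genes past the filter. Adora2a, Penk and the other marker genes, Slc18a2 and the coupling genes given with values were chosen for their roles after their values were seen. Some genes of the lists are not reported here by name. The genes and lists were chosen with earlier results of these data known. Replicate numbers paired the Co samples across regions, with correlations of deviations of 0.171 to 0.278 in the 4 pairs, each sample correlating best with its own number. The Hi pairs (-0.0751 to 0.0513) and the pairs of lines did not correlate alike. Whether equal numbers mark the same mouse is not given in the sources used here. Alternatives were no filter, a pseudocount of 0.1, no TMM factor, median-of-ratios scaling, edgeR 4.0.16 (quasi-likelihood, recovered fragments), replicate blocks, only the compared groups, each sample left out, and, chosen after seeing the data, CeHi replicate 3 and StHi replicate 0 left out together.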

Additional observations from a re-analysis of the deposited data

Results flagged for a closer look

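Of the 27 combinations of a gene and a group of 4 samples, 2 held a sample far from the others, and chance marks about 1 in 20. Drd2 in CeHi replicate 3 was at 108.8 normalized counts, where the other 3 CeHi samples were at 21.3 to 33.6. Drd3 in CeCo replicate 2 was at 3.413 normalized counts, where the other 3 were at 0.891 to 0.932, which is 4 fragments against 1 fragment each and close to the floor of 3 fragments.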

How the results depend on the processing

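The Maoa call over both regions was the member call that depended most on the processing. Its value stayed between -0.14 and -0.11 with each sample left out and between -0.13 and -0.12 in the other alternatives. The number of members called over both regions, 1 with all samples, was 0 without the filter, without the TMM factor, with median-of-ratios scaling, with the replicate block (Maoa -0.13, adjusted p = 0.0600) and with CeHi replicate 3 and StHi replicate 0 both left out, and it ranged from 0 to 1 with each sample left out. It remained 1 with a pseudocount of 0.1 (adjusted p = 0.0430) and with edgeR (0.0419). The replicate block, with or without line, changed no other member call. No member was called for the line in Ce, the line in St or the interaction in any alternative.

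Small differences changed sign without passing the test. With the replicate block the St line difference of Drd1a was 0.01545, and with both samples left out it was 0.07617 for Drd1a, 0.04644 for Drd3 and -0.0971 for Slc6a3. The interaction was 0.09994 for Drd2 and 0.03117 for Drd3 with the replicate block within line, 0.3494 for Drd3 with a pseudocount of 0.1, and 0.2089 for Drd2, 0.3279 for Drd3 and 0.116 for Ddc with both samples left out. The region difference of Maob in the Co line was -0.01893 without the filter, -0.003661 without the TMM factor, -0.00115 with edgeR, -0.001272 with only the compared groups and -0.001499 with both samples left out.

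With each sample left out, ranges that crossed 0 were -0.3401 to 0.265 for Drd3 in the Ce line comparison, and in St -0.1199 to 0.0748 for Drd1a, -0.4132 to 0.04509 for Drd3, -0.09709 to 0.4168 for Slc6a3 and -0.008355 to 0.04047 for Maob. Over both regions the range was -0.2933 to 0.009289 for Drd3. For the interaction it was -0.6638 to 0.1058 for Drd2, -0.5113 to 0.1587 for Drd3, -0.356 to 0.02767 for Ddc and -0.07569 to 0.004968 for Maob, and for Maob between regions in Co -0.04037 to 0.04012. The cause of these changes was not tested. Drd3 in Ce, Drd4 in St and Slc6a3 in Ce rested on few fragments, at 0 to 6 per sample.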
